A study of Mus musculus with 4 samples.

Results

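Forkhead transcription factors share a winged helix DNA-binding domain, and their genes, named Fox with a letter for the subfamily, were followed here in lymphatic endothelial cells of the newborn mouse lung. The genes were chosen by name: every row of the deposited count table whose symbol is Fox, a letter from a to s and a number, without Foxc1 and Foxc2, which gives 42 of 24421 rows. Lymphatic endothelial cells, which line lymphatic vessels, were sorted from lungs at postnatal day 0 as cells without CD45, a leukocyte surface protein, and with CD31, an endothelial surface protein, and GFP. Jun-Ctrl animals were Prox1-CreER;Junf/+;Rosa26-mTmG, with 1 floxed Jun allele, and Jun-cKO animals were Prox1-CreER;Junf/f;Rosa26-mTmG, with both alleles floxed. All animals of both groups therefore carried the Prox1-driven, tamoxifen-dependent Cre recombinase, a reporter that turns green once Cre has acted, and at least 1 floxed Jun allele. Lungs of 3 to 5 mice were pooled for a group, with cells of 3 replicates mixed before RNA amplification according to the design text, and each group has 2 libraries (n = 2 throughout), called 1 and 2 here. Whether both libraries of a group began as separate sorts is not in the labels, so the p-values rest on a spread between libraries that may be technical.

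Total counts were 16037416 and 6483514 in the Jun-Ctrl libraries and 15558476 and 6911821 in the Jun-cKO libraries. Jun, the targeted gene, stood at 472 and 433 CPM in Jun-Ctrl and at 524 and 475 CPM in Jun-cKO (CPM, counts scaled to library size with TMM normalisation), which is a difference of 0.14 on the log2 scale (SE 0.12, adjusted p = 0.354), and 0.41 (adjusted p = 0.00374) after correction for the GC content of transcripts. Jun RNA was thus not lower under the Jun-cKO label, so those libraries are called Jun-cKO-labelled, and each direction below rests on the label. The summed level of 11 lymphatic markers was 13607 to 14805 CPM in Jun-Ctrl and 18918 to 19418 CPM in Jun-cKO-labelled libraries, with Ccl21a at 0 counts in every library. Of the 10 tested, Lyve1, Mmrn1 and Reln were called higher and Flt4 was called lower by 1.51-fold (adjusted p = 0.000356). After GC correction the Flt4 call was lost (log2 fold change -0.28, adjusted p = 0.0878). The median log2 fold change of the 10 as counted was 0.09. Prox1, whose promoter drives the Cre, stood at 39.3 and 43.6 CPM against 34.2 and 31.9 CPM (adjusted p = 0.0686; 0.0106 after GC correction). The 16 lung epithelial markers summed to 1737 to 1843 CPM against 197 to 199 CPM. All 16 were called lower, beside 22.5% of all tested genes. Part of them, among them Nkx2-1, Cdh1 and Epcam, passed the filter on low counts only through Jun-Ctrl, where they are high. For those the filter fixed the direction. The 9 leukocyte markers summed to 464 to 472 against 185 to 206 CPM, with 8 called lower, and of 13 tested mesenchymal markers 7 were called lower and 1 higher. The general endothelial markers summed to 3313 to 3465 against 3852 to 3858 CPM, with 2 of 8 called higher and 1 lower. The blood endothelial ones summed to 890.3 to 920.4 against 1076 to 1083 CPM, but of 9 tested 4 were called higher, among them Ednrb, and Plvap, Kit and Car4 were called lower (median log2 fold change -0.09). Car4 passed the filter only through Jun-Ctrl, so the filter fixed its direction. Mesothelial markers summed to 238 to 266 against 315 to 334 CPM, a sum made mostly of Gpm6a (called higher), while Msln was 27.9-fold lower (adjusted p = 6.05e-21). Lymphocyte markers summed to 1.38 to 1.64 against 22.0 to 23.0 CPM, with 1 tested (Gzma, called higher) and Cd3e, Cd8a and Il2ra at 0. Gzma passed the filter only through the Jun-cKO-labelled libraries, so the filter fixed its direction. Erythroid markers summed to 0.295 to 1.07 CPM in all libraries with the haemoglobin genes at 0. In sorted bulk RNA, fewer cells of a type and less RNA per cell cannot be told apart.

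Forkhead proteins bind a short DNA core around TGTTTAC and differ mainly outside that domain. Foxo proteins are held in the cytoplasm by phosphorylation through PI3K and Akt and act in the nucleus when growth factor signalling is low, and Foxo1 is needed for endothelial quiescence and vessel formation. Foxp proteins are mostly repressors, Foxm1 drives mitotic genes, Foxa proteins open chromatin in epithelium, and Foxf1 acts in lung mesenchyme and endothelium downstream of hedgehog signals.

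Foxo1 was the strongest member per length in every library, followed by Foxp1 and Foxp2. Foxo1 stood at 99.9 ± 6.33 CPM per kilobase of the table's gene length (mean ± SD) in Jun-Ctrl and at 78.9 ± 2.67 under the Jun-cKO label. Foxp1 followed at 55.5 ± 1.95 and 32.0 ± 1.70, and Foxp2, a close relative of Foxp1, at 18.4 ± 0.371 and 17.4 ± 0.0327 CPM per kilobase. These levels are separated by more than the spread between libraries. In Jun-Ctrl the next were Foxk2 at 9.42 ± 0.286, Foxn3 at 8.41 ± 0.202, Foxk1 at 7.54 ± 0.200 and Foxn2 at 6.66 ± 0.944 CPM per kilobase, where Foxk1 and Foxn2 lay within their spread. Foxj3, Foxo4 and Foxm1 formed a group between 4.43 and 4.94 CPM per kilobase that the spread does not separate. The lowest tested members were Foxq1 at 0.440 and Foxj1 at 0.436 CPM per kilobase. Under the Jun-cKO label the first 4 places did not change, Foxn3 went from the fifth to place 9 and Foxa2 from place 11 to place 18.

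**Figure D1:**
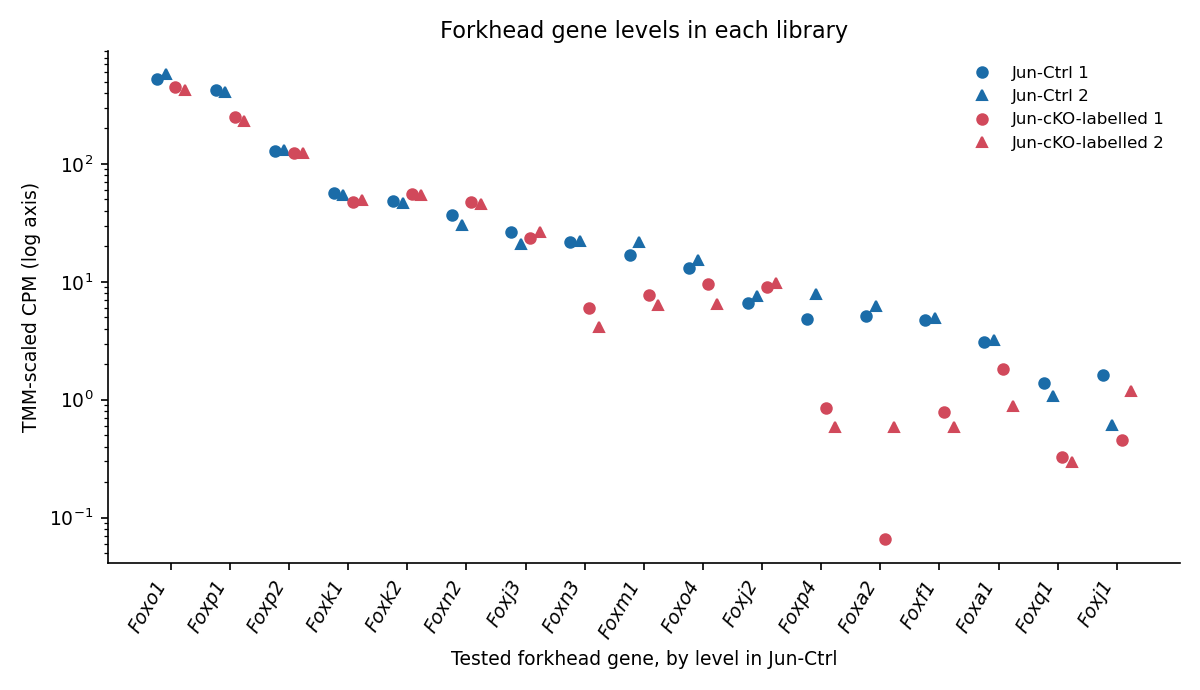
Level of the 17 tested forkhead genes in each library, as TMM-scaled CPM on a log axis, with the genes ordered by their Jun-Ctrl mean. Circles and triangles are libraries 1 and 2 of a group; Foxo1, Foxp1 and Foxp2 lie above 100 CPM in every library, and Foxa2, Foxf1, Foxp4 and Foxn3 show the widest gaps between the groups.

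Foxo1, Foxp1 and Foxp2 together made up 81.1% and 81.9% of the summed forkhead CPM in Jun-Ctrl and 79.4% and 79.0% under the Jun-cKO label. The sum over all 42 genes was 1337 and 1363 CPM in Jun-Ctrl and 1033 and 989 CPM under the Jun-cKO label. The groups did not overlap in this sum, and the lower bars in the plot of summed levels come mainly from Foxp1 and Foxo1. The per-length ratio of Foxp1 to Foxp2 was 3.13 and 2.90 in Jun-Ctrl and 1.90 and 1.77 under the Jun-cKO label, so the balance of the 2 genes differed by more than the spread.

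**Figure D2:**
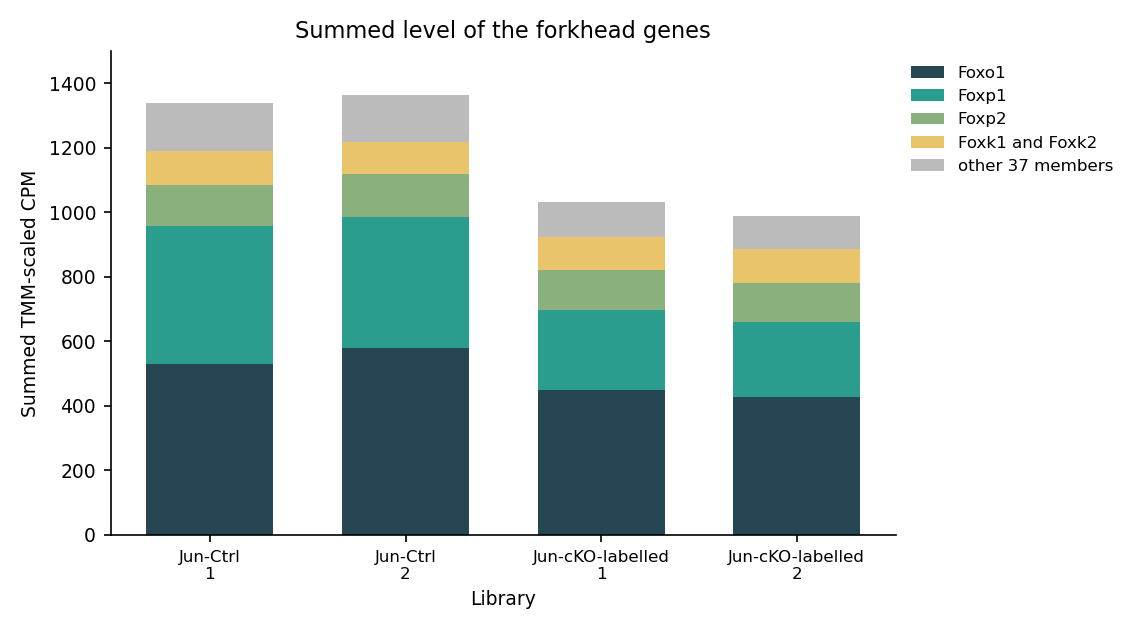
Summed TMM-scaled CPM of the 42 forkhead genes in each library, from 0, split into Foxo1, Foxp1, Foxp2, Foxk1 with Foxk2, and the other 37 genes. Both Jun-Ctrl bars reach above 1300 CPM and both Jun-cKO-labelled bars stop at 1033 and 989 CPM, with Foxo1 at 39.6% to 43.5% of every bar.

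Promoter sequence was read from RefSeq (GRCm38.p6, the patch series of the mm10 build) in windows from 250 bases before to 50 bases after a transcription start, and 27 of the 42 genes had 32 such windows. The median window held 19 CpG dinucleotides for the forkhead genes against 7 over all 32851 windows of the genome, and its GC content was 62.5% against 52.7%. The 100 bases before the start are shown for the most abundant members, Foxo1 and Foxp1, with every CpG in capitals. The Foxo1 stretch holds 13 CpGs. Foxp1 has 3 windows, with 44, 13 and 5 CpGs in the whole window, and the stretches shown, from the richest and the poorest, hold 14 and 0. Foxo1 lies on the plus strand of chromosome 3 and Foxp1 on the minus strand of chromosome 6.
Foxo1 chr3:52268237-52268336: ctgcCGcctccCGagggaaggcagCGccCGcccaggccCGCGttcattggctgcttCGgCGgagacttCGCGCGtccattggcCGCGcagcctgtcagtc
Foxp1 chr6:99028299-99028398: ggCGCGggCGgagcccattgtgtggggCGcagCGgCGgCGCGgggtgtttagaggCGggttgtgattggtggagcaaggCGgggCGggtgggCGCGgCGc
Foxp1 chr6:99266516-99266615: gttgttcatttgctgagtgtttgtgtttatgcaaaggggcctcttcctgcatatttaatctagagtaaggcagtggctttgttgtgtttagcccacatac

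The AP-1 element, the site that Jun-containing dimers bind, was searched as TGANTCA on both strands. It stood in 2 of the 32 forkhead windows (6.25%) and in 7.81% of all windows of the same length. Tested members had 13 windows, of which 1 (7.69%) held it, at an internal start of Foxn3, the member with the smallest adjusted p. The tested genes Foxm1, Foxf1, Foxo4, Foxq1, Foxn2, Foxk1, Foxp2 and Foxj1 had no window and were not searched. The forkhead core, searched as TGTTTAC on both strands, stood in 1 of the 32 windows (3.12%) against 3.65% of all windows, and that window belongs to Foxa1. Over the 32 windows neither share was above that of all windows, and no forkhead window held both motifs. The matches are shown in capitals; the Foxn3 match begins 42 bases after the annotated start and the Foxa1 match 141 bases before it, both on the minus strand of chromosome 12. A match describes these letters only.
Foxn3 chr12:99450025-99450054: cgatgctgacctggacccattcTGACTCAg
Foxa1 chr12:57546223-57546282: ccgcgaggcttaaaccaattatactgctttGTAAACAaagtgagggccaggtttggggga

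Setting the Jun-cKO-labelled against the Jun-Ctrl libraries addresses how forkhead RNA levels differ with both Jun alleles floxed rather than 1. Of the 42 genes, 14 had no count in any library, 11 had 1 to 35 counts in all and were too low to test, and 17 were tested. Among the 17, 10 were called lower and 1 higher at an adjusted p under 0.05, where 22.5% of the 12656 tested genes were called lower and 19% higher. The groups did not overlap for 12 tested members that were lower and 3 that were higher, against 35.9% and 35.4% of all tested genes. These counts cannot stand for the family, because Foxa1, Foxa2, Foxf1, Foxp4 and Foxq1 passed the filter on low counts only through their Jun-Ctrl libraries, where they are high. Of the 10 members with a mean of at least 10 CPM, 5 were called lower and 1 higher, where 18.6% and 23.6% of all tested genes at that level were. Their median log2 fold change was -0.28, beside 0.07 over all genes at that level. In the DESeq2 Wald test 8 members were called lower and 0 higher, with 1 higher at an unadjusted p under 0.05, where 13% and 10.2% of all genes given an adjusted p were called.

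**Figure D3:**
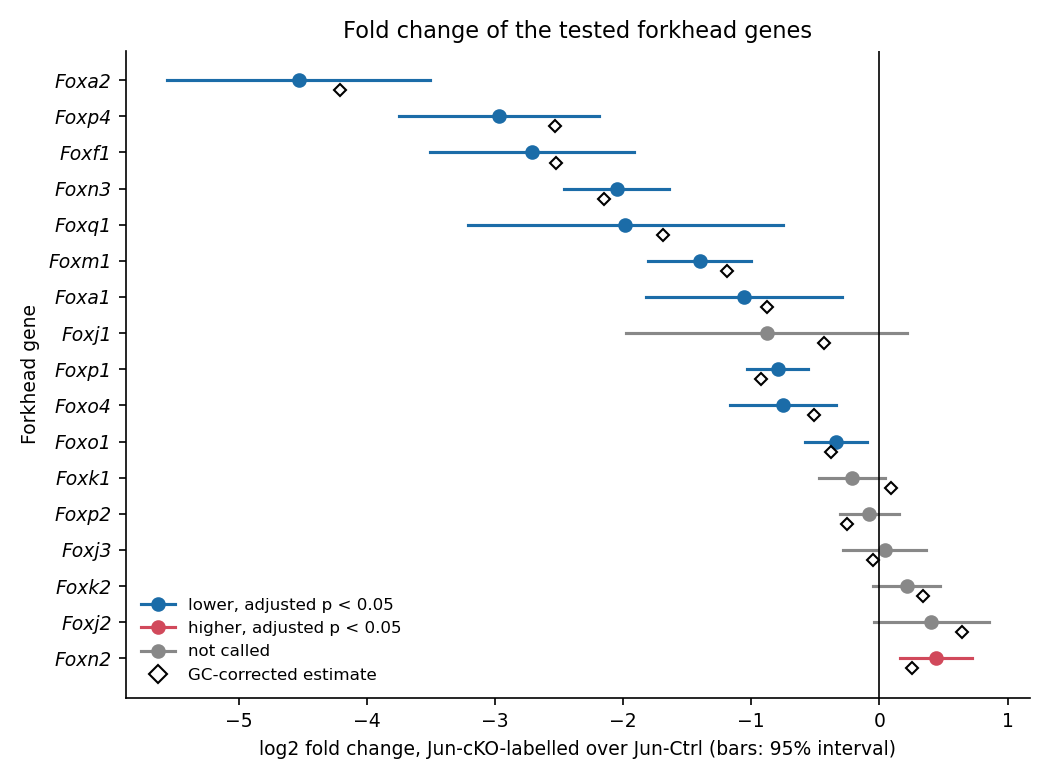
Log2 fold change of the 17 tested forkhead genes, Jun-cKO-labelled over Jun-Ctrl, with 95% intervals as bars and colour by call. Open diamonds give the estimate after correction for GC content. They lie left of 0 for each of the 10 genes called lower, and Foxn2 alone is called higher. For Foxa1, Foxa2, Foxf1, Foxp4 and Foxq1 the filter fixed the direction.

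The Foxo subfamily, effectors of PI3K and Akt signalling, was lower in its 2 tested genes. Foxo1 (chromosome 3, 52268336 to 52353221, plus strand) stood at 530 and 580 CPM in Jun-Ctrl and at 449 and 428 CPM under the Jun-cKO label. Both Jun-Ctrl libraries were above both others, and the fold was modest, 1.26-fold lower (log2 fold change -0.34, SE 0.12, adjusted p = 0.0189). The Foxo1 call ended without Jun-Ctrl library 1 (adjusted p = 0.0556), without Jun-Ctrl library 2 (0.164) and without Jun-cKO-labelled library 2 (0.0737). Foxo4, on the X chromosome (101254528 to 101260873), stood at 13.2 and 15.3 CPM against 9.50 and 6.50 CPM. It was 1.69-fold lower (log2 fold change -0.75, SE 0.21, adjusted p = 0.00263), and over 13 alternatives its adjusted p ran from 0.000252 to 0.0448.

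Foxo3, often a broadly expressed member, was barely counted. It had 17 and 4 counts in the Jun-Ctrl libraries and 1 and 0 under the Jun-cKO label, which was below the filter, at a ratio of 20.1 between the groups (95% counting interval 3.23 to 831). The table's length for Foxo3 is 2889 bases, 38.2% of the 7571 exon bases that GENCODE M21 gives, so reads in the remaining exon bases may not have been counted as Foxo3. The part of this in its low level was not tested. The share was also under 60% for 5 tested members, Foxn3, Foxp2, Foxj3, Foxp1 and Foxq1, so their levels per length carry the same limit. Foxo6 had 5 and 0 counts against 4 and 1, where a difference was not detectable at this depth.

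In the Foxp subfamily of repressors, Foxp1 was called lower and Foxp2 was not called. Foxp4 was called lower too, but it passed the filter only through Jun-Ctrl, so the filter fixed its direction. Foxp1 (chromosome 6, 98925338 to 99522721, minus strand) stood at 426 and 405 CPM in Jun-Ctrl and at 248 and 230 CPM under the Jun-cKO label. The groups were far apart for this abundant gene, which was 1.73-fold lower (log2 fold change -0.79, SE 0.12, adjusted p = 3.23e-07) and kept its call in all 13 alternatives. Foxp4 (chromosome 17, 47867133 to 47924645) had 80 and 52 counts against 13 and 4, or 4.85 and 7.96 CPM against 0.852 and 0.591 CPM. It was 7.83-fold lower (log2 fold change -2.97, SE 0.39, adjusted p = 2.62e-08). Foxp2 stood at 128 and 132 CPM against 123 and 123 CPM, with a 95% interval of the fold from 0.808 to 1.11. Foxp3, which defines regulatory T cells, had 1 count in all, in a table where the T cell gene Cd3e had 0.

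Foxm1, which drives genes of G2 and mitosis in dividing cells, was lower. It stood at 16.8 and 21.9 CPM in Jun-Ctrl and at 7.67 and 6.35 CPM under the Jun-cKO label. The groups did not overlap, and the gene (chromosome 6, 128362967 to 128376146) was 2.64-fold lower (log2 fold change -1.40, SE 0.20, adjusted p = 1.73e-07), a call kept in all 13 alternatives. Of 20 known Foxm1 target genes, 6 were called lower and 0 higher, beside 22.5% lower and 19% higher of all tested genes, with a median log2 fold change of -0.34. The list spans low and higher levels. Of all tested genes under 10 CPM, 30.1% were called lower and 10% higher, and 18.6% and 23.6% of those at or above it. At an unadjusted p under 0.05 edgeR had 10 lower and 0 higher, and DESeq2 called 3 lower and 0 higher. Among them the mitotic kinase genes Plk1 and Aurkb were 2.19-fold and 1.90-fold lower (adjusted p = 7.31e-05 and 0.000688). The phosphatase gene Cdc25b was 1.63-fold lower (adjusted p = 0.00125) and the kinetochore motor gene Cenpe 1.61-fold lower (adjusted p = 0.00396). Leaving out Jun-Ctrl library 1 left 2 of the 6 calls and ended those of Aurkb (adjusted p = 0.0771) and Cenpe (0.0582), and Cenpe also lost its call without Jun-cKO-labelled library 1 (0.105).

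The Foxn subfamily went both ways. Foxn3, a checkpoint-linked repressor, stood at 21.6 and 22.3 CPM in Jun-Ctrl and at 5.96 and 4.13 CPM under the Jun-cKO label. Both Jun-Ctrl libraries lay well above both others, and it was 4.14-fold lower (log2 fold change -2.05, SE 0.20, adjusted p = 1.48e-11), the smallest adjusted p of any member. Foxn2 stood at 37.2 and 30.4 CPM against 47.3 and 45.5 CPM and was the single member called higher (log2 fold change 0.44, SE 0.14, adjusted p = 0.00956), by 1.36-fold. The Foxn2 call was lost after GC correction (adjusted p = 0.117), in DESeq2 (0.057) and without Jun-Ctrl library 2 (0.202). The per-length ratio of Foxn2 to Foxn3 was 0.886 and 0.700 in Jun-Ctrl and 4.07 and 5.65 under the Jun-cKO label. Foxn3 (chromosome 12, 99190078 to 99563582) was counted over 2611 bases, 22.7% of its GENCODE exon bases, and overlaps the genes 3300002A11Rik and Gm19898 on the opposite strand, whose reads may not be told apart, since the strand setting of the counting is not stated. Foxo1, Foxp4, Foxq1, Foxf1, Foxj2 and Foxj3 also overlap annotated genes on the opposite strand. Foxn1 had 4 counts, all in 1 Jun-Ctrl library, and Foxn4 had 0.

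The Foxk genes, linked to glucose use and autophagy, and the Foxj2 and Foxj3 genes were not called. Foxk1 stood at 57.2 and 55.1 CPM in Jun-Ctrl and at 47.7 and 49.5 CPM under the Jun-cKO label, with a 95% interval of the fold from 0.721 to 1.03. Foxk2 stood at 48.4 and 46.4 CPM against 55.8 and 54.2 CPM, with an interval from 0.968 to 1.39. Each of the 2 genes had groups that did not overlap, in opposite directions, and their per-length ratio, Foxk1 to Foxk2, was 0.799 and 0.803 in Jun-Ctrl and 0.577 and 0.617 under the Jun-cKO label. The log2 fold change of Foxk1 was -0.21 as counted (95% interval -0.47 to 0.05) and 0.09 after GC correction (adjusted p = 0.596). Neither was called, so the direction of Foxk1 is not determined. Foxk2 was called higher after GC correction (log2 fold change 0.34, adjusted p = 0.0218), as was Foxj2 (0.64, adjusted p = 0.0168). Foxj2 stood at 6.61 and 7.65 CPM against 8.98 and 9.74 CPM, and Foxj3 at 26.4 and 21.0 CPM against 23.5 and 26.4 CPM, where the groups overlapped.

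Foxa1, Foxa2 and Foxq1, which act mainly in epithelium, were low in these libraries and lower under the Jun-cKO label. Each passed the filter only through Jun-Ctrl, so the filter fixed its direction. Foxa2 (chromosome 2, 148042877 to 148046969), a factor of lung epithelial differentiation, had 85 and 41 counts in Jun-Ctrl and 1 and 4 under the Jun-cKO label. In CPM it went from 5.15 and 6.27 to 0.0655 and 0.591, 23.1-fold lower and the widest difference of any tested member (log2 fold change -4.53, SE 0.51, adjusted p = 5.26e-10). On so few counts the size is uncertain, at -3.21 without Jun-cKO-labelled library 1 and -6.20 without Jun-cKO-labelled library 2. Foxa1 stood at 3.09 and 3.21 CPM against 1.83 and 0.886 CPM, 2.08-fold lower (log2 fold change -1.06, SE 0.38, adjusted p = 0.0218). That call was weak: it ended without Jun-Ctrl library 1 (adjusted p = 0.159), without Jun-Ctrl library 2 (0.0875), without Jun-cKO-labelled library 2 (0.134), in DESeq2 (0.192) and after GC correction (0.0628). Without Jun-cKO-labelled library 1 the log2 fold change of Foxa1 was -1.81. Foxq1, a single-exon gene, had 23 and 7 counts against 5 and 2 and was 3.95-fold lower (log2 fold change -1.98, SE 0.61, adjusted p = 0.00769; 0.185 in DESeq2).

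Epithelial markers were lower as well: the lung epithelial transcription factor gene Nkx2-1 was 5.46-fold lower and the cadherin gene Cdh1 5.46-fold, with the summed levels given above. Like Foxa1, Foxa2 and Foxq1, both passed the filter only through Jun-Ctrl. The epithelial surface gene Epcam had 48 and 16 counts in Jun-Ctrl and 2 and 0 under the Jun-cKO label, at a ratio of 30.6 between the groups (95% counting interval 8.14 to 258). The part of epithelial RNA in the Foxa and Foxq1 values was not tested. Foxa3, below the filter, had 20 and 3 counts against 9 and 3.

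Foxj1, the master regulator of motile cilia, was not called. It had 27 and 4 counts in Jun-Ctrl and 7 and 8 under the Jun-cKO label, or 1.64 and 0.612 CPM against 0.459 and 1.18 CPM, and the groups overlapped. Its 95% interval of the fold ran from 0.254 to 1.16, and its log2 fold change, -0.88, was -0.14 and -1.47 without Jun-cKO-labelled library 1 and 2. Ciliated cell markers summed to 40.3 and 41.6 CPM in Jun-Ctrl and to 47.6 and 39.0 CPM under the Jun-cKO label. Of 7 tested, 2 were called higher and 0 lower (0 lower also at an unadjusted p under 0.05, by edgeR and by DESeq2). Over all tested genes 19% were called higher and 22.5% lower. The 2 called higher passed the filter only through the Jun-cKO-labelled libraries, where they are high. The filter thus fixed their direction, and their number is not read further.

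Foxf1, a hedgehog-responsive gene of lung mesenchyme and endothelium, was lower, and so was its neighbour Fendrr. Unlike Fendrr, Foxf1 passed the filter only through Jun-Ctrl, so the filter fixed its direction. Foxf1 (chromosome 8, 121084386 to 121088144, plus strand) stood at 4.73 and 4.90 CPM in Jun-Ctrl and at 0.786 and 0.591 CPM under the Jun-cKO label, on 78 and 32 against 12 and 4 counts. It was 6.56-fold lower (log2 fold change -2.71, SE 0.40, adjusted p = 2.92e-07), and the groups did not overlap. Fendrr, a long non-coding RNA read from the opposite strand just upstream (121054882 to 121083110), stood at 12.4 and 13.8 CPM against 1.11 and 1.18 CPM, 11.3-fold lower (adjusted p = 7.62e-14). Foxc2, a lymphatic valve factor on the other side of Foxf1 (121116171 to 121118895), went the opposite way, from 155 and 133 to 232 and 249 CPM, 1.66-fold higher (adjusted p = 1.69e-06). The local gene order therefore does not share 1 direction. Foxl1, the next forkhead gene of this cluster, had 11 and 3 counts against 2 and 2, at a ratio of 3.35 between the groups (95% counting interval 1.05 to 14.0).

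Of 9 tested hedgehog pathway genes, 4 were called lower and 0 higher, with a median log2 fold change of -0.49. Over all tested genes 22.5% were called lower, and 30.1% of those under 10 CPM. DESeq2 called 3 lower and 0 higher, and neither tool had a gene higher at an unadjusted p under 0.05. The co-receptor gene Boc was 3.04-fold lower (adjusted p = 1.42e-07) and the hedgehog-binding protein gene Hhip 2.75-fold (adjusted p = 0.000979). The co-receptor gene Cdon was 1.63-fold lower (adjusted p = 0.0163), a call that ended without Jun-Ctrl library 1 (0.742). The ligand gene Shh, made by lung epithelium, had 56 and 10 counts in Jun-Ctrl and 1 and 0 under the Jun-cKO label, at a ratio of 63.2 (95% counting interval 10.9 to 2532; adjusted p = 1.24e-07 by edgeR). Shh, 1 of the 4 hedgehog genes called lower, passed the filter only through Jun-Ctrl, where it is high, so the filter fixed its direction. Of 8 known endothelial targets of Foxf1, 3 were called higher and 1 lower, with a median of 0.25, where 19% and 22.5% of all tested genes were. Among these the lipid receptor gene S1pr1, also in the Foxo target list, was 1.51-fold higher, from 469 ± 24.4 to 708 ± 54.0 CPM (adjusted p = 0.000102), while the Tek and Cldn5 calls ended without Jun-Ctrl library 1 (0.127 and 0.529) and without Jun-cKO-labelled library 2 (0.0533 and 0.199). Pdgfb, the member called lower, was 1.67-fold lower (adjusted p = 0.0012), and its call ended without Jun-Ctrl library 1 (0.0813) and after GC correction (0.219). Mesenchymal markers went both ways: their summed level, mostly Fn1, overlapped between the groups at 2701 to 3287 CPM in Jun-Ctrl and 2635 to 2994 CPM under the Jun-cKO label, with the collagen gene Col1a1 6.82-fold and the smooth muscle gene Acta2 5.19-fold lower, the matrix gene Postn 2.18-fold higher (adjusted p = 2.77e-10), and Pdgfra and Pdgfrb not called. Their part in the Foxf1 value was not tested.

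The remaining genes were at or near 0. Foxs1, known from pericytes, had 10 and 1 counts in Jun-Ctrl and 0 in both Jun-cKO-labelled libraries, or at least 3.51-fold lower when the empty group is set at 3 counts in all. Foxd4 had 7 and 1 against 6 and 2 counts. Foxd2, Foxe1, Foxf2 and Foxp3 had 1 or 2 counts each. The 14 genes without a count include Foxd1 and Foxd3, known from kidney stroma and neural crest. A count of 0 allows up to 3 counts, which is 0.187 to 0.463 CPM of a library's total, so expression below that level could not be seen.

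Of 27 genes that act on Foxo proteins, 6 were called higher and 5 lower, with a median log2 fold change of 0.11. These counts are near the shares over all tested genes, 19% higher and 22.5% lower, so they show nothing particular to the list. The acetyltransferase gene Crebbp was 3.85-fold lower, from 24.5 ± 1.93 to 6.25 ± 0.898 CPM (adjusted p = 1.28e-11), and the kinase gene Akt1 was 1.73-fold lower, from 233 ± 3.56 to 134 ± 31.7 CPM (adjusted p = 1.24e-06). The 14-3-3 gene Ywhaz was 1.49-fold lower (adjusted p = 0.000101). The PI3K regulatory subunit gene Pik3r2 was 12.3-fold lower (adjusted p = 1.21e-06), but on few counts. It had 41 and 24 counts in Jun-Ctrl and 3 and 2 under the Jun-cKO label. The ratio between the groups was 12.4 (counting interval 5.07 to 39.6). Pik3r2 passed the filter only through Jun-Ctrl, so the filter fixed its direction. The 6 called higher were the kinase genes Stk3 and Sgk3, the 14-3-3 gene Ywhah, the deacetylase gene Sirt1, the nuclear export gene Xpo1 and the ubiquitin ligase gene Skp2. Without Jun-Ctrl library 2 the list had 2 genes called higher.

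Of 32 tested genes known as Foxo targets, 8 were called higher and 7 lower, with a median of 0.10, again near the shares of 19% and 22.5% over all tested genes. Cdkn2b and Bcl6, counted among the 7, passed the filter only through Jun-Ctrl, so the filter fixed their direction. The cell cycle inhibitor gene Cdkn1a was 1.91-fold lower, from 371 ± 27.0 to 193 ± 16.4 CPM (adjusted p = 9.7e-09), and the signalling inhibitor gene Spry2 2.16-fold lower (adjusted p = 4.51e-07). Angpt2, a Tie receptor ligand of endothelium, was 1.65-fold higher, from 252 ± 21.3 to 417 ± 25.9 CPM (adjusted p = 2.59e-06), and the mitophagy gene Bnip3 was 2.10-fold higher (adjusted p = 2.52e-05). Without Jun-Ctrl library 2 there were 4 called higher, without Jun-Ctrl library 1 there were 3 called lower, and after GC correction 4 were called lower.

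The calls among partners of Foxp and Foxk proteins stand beside 41.5% of all tested genes called in either direction. Of 17 corepressor genes that work with Foxp proteins, 2 were called higher and 3 lower (median 0.04), led by the chromatin remodeller gene Chd3, 1.83-fold lower (adjusted p = 3.55e-06). The 2 calls of higher level, Ctbp1 and Hdac2, both ended without Jun-Ctrl library 2. Ctbp1 also lost its call without Jun-Ctrl library 1, and each of the pair without Jun-cKO-labelled library 1. The Hdac2 call ended too after GC correction (adjusted p = 0.288), in DESeq2 and with the filter of 50 counts in 2 libraries. Ctbp1 kept its call after GC correction (2.25e-05). Of 8 Foxk partner genes, Ogt, the O-GlcNAc transferase gene, was 1.80-fold higher (adjusted p = 5.22e-08) and Asxl2 1.28-fold lower (adjusted p = 0.0312), the latter call being lost without any 1 of the 4 libraries (adjusted p from 0.0518 to 0.215).

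Level and base composition moved with the fold changes. Of all tested genes with a mean under 10 CPM, 30.1% were called lower and 10% higher. The 5 forkhead genes called lower at that level are the ones that passed the filter only through Jun-Ctrl, so the filter fixed their direction and their number is not read further. The median transcript GC content of the 17 was 54.4%, against 49.7% over all tested genes. Over the 17 members, Spearman's rho between GC content and log2 fold change was -0.51, and over 12188 tested genes it was -0.34; the points share the same 4 libraries, genes are not independent replicates, and the 17 include the 5 that the filter admitted only through Jun-Ctrl. After GC correction 9 members were called lower and 2 higher, where 19.9% of all tested genes were called lower and 19.3% higher, and at or above 10 CPM the counts were 5 and 1, with a median of -0.31 beside 0.07 over all genes at that level. Foxn3, Foxp1, Foxo1, Foxo4 and Foxm1 were among the calls as counted and after correction. So were Foxp4, Foxf1, Foxa2 and Foxq1, but the filter fixed their direction, so their calls are not read further.

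**Figure D4:**
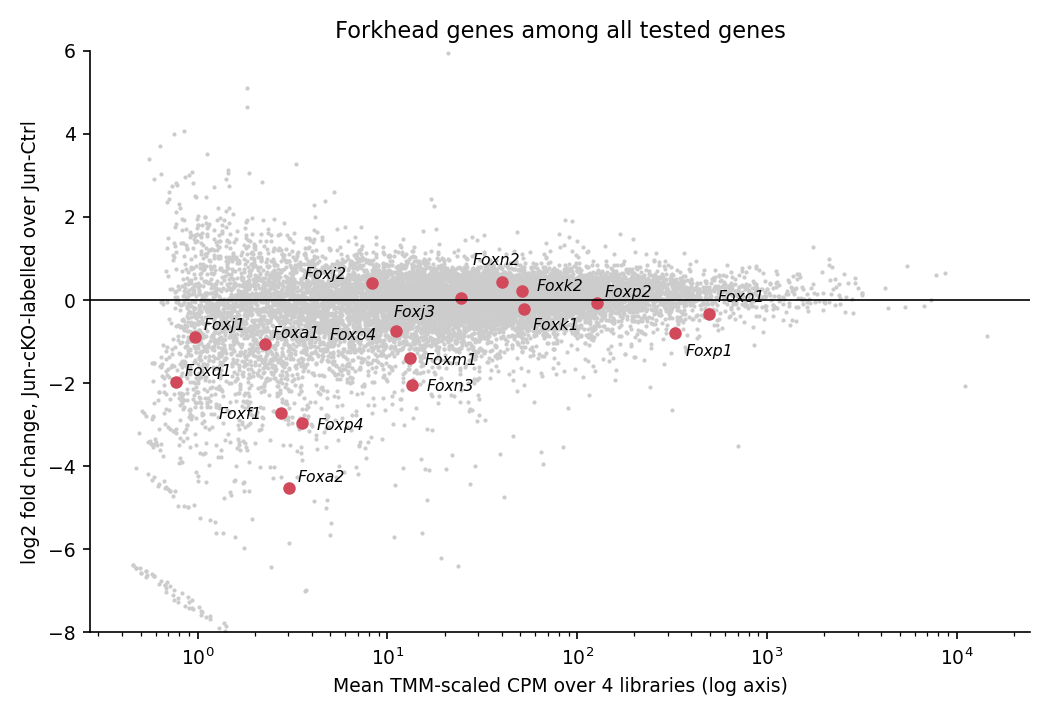
Log2 fold change, Jun-cKO-labelled over Jun-Ctrl, against mean level over the 4 libraries (TMM-scaled CPM, log axis) for 12656 tested genes in grey and 17 forkhead genes in red; 13 grey genes lie outside the vertical range of -8 to 6. Foxo1 and Foxp1 sit below 0 at high level, and Foxa2, Foxp4, Foxf1 and Foxq1 sit below 0 at a level where grey points spread widely downward.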

How the data were processed

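The deposited file gives unnormalised read counts by gene, 1 column for each library (matched by title), and gene lengths in bases. Per the submitters' processing notes, which state no roles, STAR 2.7.2a, featureCounts 1.6.4, edgeR 3.28.1 and mm10 were used. RNA was amplified before library preparation, per the labels' protocols, and reads were 79 bases long. The annotation, strand setting and handling of shared reads are not stated in the labels, so reads of overlapping or antisense genes, and reads shared by related genes, are uncertain.

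The test was the quasi-likelihood F test of edgeR 4.0.16 (R 4.3.3) after TMM and filterByExpr, on all 12656 genes that passed, with Benjamini-Hochberg adjustment over all of them and an adjusted p under 0.05 as the call. The comparison is Jun-cKO minus Jun-Ctrl, 2 libraries each, with no block. Standard errors are the fold change over the root of F. CPM per kilobase uses the table's length. The count intervals are exact 95% intervals and, like the floor of 3 counts, cover counting error only. Alternatives were DESeq2 size factors, upper-quartile scaling, the DESeq2 1.42.0 Wald test, limma-voom (limma 3.58.1), no filter, at least 50 counts in 2 or more libraries, a block for the replicate mark, a GC correction (loess, span 0.5, on GENCODE M21 transcripts), both together, and each library left out. The members and lists were chosen with earlier results of these data known. Named are all members and, in each pathway list, up to 4 called genes with the smallest p. Stk3, Sgk3, Ywhah, Sirt1, Xpo1, Skp2, Cdkn2b, Bcl6, Flt4, Ednrb, Plvap, Kit, Car4, Gpm6a, Msln, Postn, Nkx2-1, Cdh1, Epcam, Col1a1, Acta2, Foxc2 and Fendrr were named after their values were seen. Some genes that this rule names are not reported here. Gene coordinates are from GENCODE M21 (GRCm38).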

Additional observations from a re-analysis of the deposited data

How the results depend on the processing

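The count of members called lower, 10, was 7 to 9 with single libraries left out and 6 with the filter of 50 counts in 2 libraries, under which Foxa1, Foxa2, Foxf1 and Foxq1 were not tested. With no filter it was 12, Foxo3 and Foxs1 being added (adjusted p = 0.00348 and 0.0241). In DESeq2 it was 8, and Foxo3 and Foxs1 were not called (adjusted p = 0.0840 and 0.191). The count called higher, 1, was 0 in DESeq2 and 0 to 1 with libraries left out, and it was 2 with the GC correction and 2 with the replicate block together with the GC correction, where 11 were lower with Foxp2 added, the 2 being Foxj2 and Foxk2 in place of Foxn2. The number of all genes called, 5251, was 3389 in DESeq2 and 2992 to 4794 with libraries left out, lowest without Jun-Ctrl library 1. Where DESeq2 called 0 members higher, 1 was higher at an unadjusted p under 0.05 (Foxn2, adjusted p = 0.057).

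Foxk1 and Foxj3, neither of them called, changed direction. Foxk1 was at 0.0875 with the GC correction and 0.0829 with the replicate block and the GC correction. Foxj3, at 0.04, was at -0.0535 with the GC correction, -0.0574 with the replicate block and the GC correction, and -0.11 to 0.23 with libraries left out, below 0 without library 2 of either group. The cause was not tested. Foxp1, Foxn3, Foxo4 and Foxm1 were called lower in each alternative. Foxp4, Foxa2 and Foxf1 were called lower in each alternative that tested them. These last genes passed the main filter only through Jun-Ctrl, which fixed their direction, so their steadiness is not read further. The replicate mark alone as a replicate block gave 10 members lower and 1 higher. The labels do not say what the mark stands for; the libraries with it had the lower total counts in both groups, and deviations of same-marked libraries correlated at 0.0945 over 10175 genes. With libraries left out, the lone library of a group is assumed to vary like the others. No scaling alternative moved the median of all genes by over 0.1 on the log2 scale. The depth of the second libraries limits genes below about 1 CPM.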
